A study of Homo sapiens with 8 samples.

Results

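Cell cycle and replication genes were examined across 4 human embryonic stem cell lines. The list held 50 genes of G1, S phase, DNA replication and mitosis, and every probe annotated to 1 of them was taken, provided that it was detected (detection p under 0.05) on at least 2 of the 8 arrays. This rule kept 67 of 70 annotated probes, covering 47 of the 50 genes, among 23280 probes of the array that met the same detection rule, 12590 named genes included. Of the 67 probes, 65 were detected on all 8 arrays. The probes of CCNE2 (cyclin E2) and GINS1 (a subunit of the GINS helicase complex) were detected on 0 arrays and that of MYBL2 (the transcription factor B-Myb) on 1, so these 3 genes have no tested value. For 17 genes over 1 probe was kept, 37 probes in all, and each probe was tested on its own.

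The study put a bacterial artificial chromosome with the ZFX locus into H9 human embryonic stem cells, an established line, and profiled RNA on Illumina bead arrays, 2 arrays a line. ZFX is an X-linked zinc finger transcription factor. The ZFX lines were clone 2 and clone 5, both picked by drug resistance after receiving the chromosome. The control lines were unmodified H9 and clone 3, a clonally derived wild-type line, for which the labels do not say whether drug selection was applied. All lines share the H9 background and were grown under the same stem cell conditions. Clones 2, 3 and 5 are single clones, so whatever else sets a clone apart cannot be told apart from its label. The labels do not describe the arrays of a line as separate cultures, so p-values measure only the spread between these arrays, which may be technical.

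A cell commits to division in G1, when D-type cyclins with CDK4 or CDK6, and then cyclin E with CDK2, inactivate the retinoblastoma proteins and release E2F factors, which drive the genes of DNA synthesis. Origins are licensed by the origin recognition complex, CDC6, CDT1 and the MCM helicase, and CDK1 with the A- and B-type cyclins later takes the cell through mitosis. Human embryonic stem cells are known for a short G1 phase and for rapid, nearly continuous division, so genes of all these phases are active in such cultures.

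Promoters of the 6 genes below are shown because each carried 1 of the largest differences between lines among the replication genes (RRM2, MCM7, CDC6) or the mitosis genes (CENPA, BUB1, CDK1). Each run is the 250 bases before the transcription start on the gene's own strand, read 5′ to 3′ from RefSeq promoters of the GRCh38.p14 assembly. Capitals mark the motifs searched on both strands: E2F (TTTGGCGC, TTTCCCGC, TTTCGCGC or TTTGCCGC), the cell cycle homology region or CHR (TTTGAA or TTCGAA) and the CCAAT box (CCAAT, read as ATTGG on the opposite strand).
RRM2, chr2:10122318-10122567, plus strand: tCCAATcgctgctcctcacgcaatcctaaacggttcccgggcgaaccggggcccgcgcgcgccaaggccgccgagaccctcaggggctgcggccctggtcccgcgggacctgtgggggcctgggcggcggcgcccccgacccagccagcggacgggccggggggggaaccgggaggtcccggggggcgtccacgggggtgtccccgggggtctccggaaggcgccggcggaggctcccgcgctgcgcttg
MCM7, chr7:100100530-100100779, minus strand: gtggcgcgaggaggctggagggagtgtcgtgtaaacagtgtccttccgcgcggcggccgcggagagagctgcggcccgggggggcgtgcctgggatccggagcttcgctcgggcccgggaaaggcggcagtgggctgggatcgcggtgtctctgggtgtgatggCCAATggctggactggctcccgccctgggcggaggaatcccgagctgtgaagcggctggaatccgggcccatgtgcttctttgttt
CDC6, chr17:40287629-40287878, plus strand: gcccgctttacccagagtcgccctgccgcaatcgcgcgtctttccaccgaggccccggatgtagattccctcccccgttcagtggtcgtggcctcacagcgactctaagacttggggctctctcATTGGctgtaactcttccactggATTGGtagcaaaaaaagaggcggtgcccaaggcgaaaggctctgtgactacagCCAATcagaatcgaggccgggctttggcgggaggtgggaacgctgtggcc
CENPA, chr2:26785806-26786055, plus strand: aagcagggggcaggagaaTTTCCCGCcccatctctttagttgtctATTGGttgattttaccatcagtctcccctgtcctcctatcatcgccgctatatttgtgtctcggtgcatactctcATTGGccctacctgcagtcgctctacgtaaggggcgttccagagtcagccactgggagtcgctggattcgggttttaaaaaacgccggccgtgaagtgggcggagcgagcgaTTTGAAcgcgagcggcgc
BUB1, chr2:110678064-110678313, minus strand: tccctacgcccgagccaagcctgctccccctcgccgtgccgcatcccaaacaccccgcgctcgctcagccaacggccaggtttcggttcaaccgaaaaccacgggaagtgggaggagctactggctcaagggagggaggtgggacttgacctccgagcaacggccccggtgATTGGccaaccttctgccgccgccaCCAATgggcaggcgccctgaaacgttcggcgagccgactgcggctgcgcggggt
CDK1, chr10:60778228-60778477, plus strand: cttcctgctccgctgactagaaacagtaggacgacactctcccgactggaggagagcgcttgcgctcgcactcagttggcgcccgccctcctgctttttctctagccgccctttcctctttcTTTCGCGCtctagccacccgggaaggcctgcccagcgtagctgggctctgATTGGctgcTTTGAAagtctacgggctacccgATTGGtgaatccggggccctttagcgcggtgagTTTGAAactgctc
No 2 matches overlapped in these 6 promoters. CDK1 and CENPA held matches to all 3 motifs, with a CHR match starting 13 bases before the start of CDK1 and 18 bases before that of CENPA. BUB1, CDC6, MCM7 and RRM2 held CCAAT matches only. The search took exact letters, so variants of a motif were not counted, and no match does not mean no site. RefSeq promoters were found for 41 of the 50 genes. An E2F match was present in 9 of these 41 (22%), against 2.79% of all 35116 promoters of the same length. CHR matches were in 10 of 20 mitosis promoters (50%) and 2 of 17 replication promoters (11.8%), against 14.3% of all promoters. CCAAT was in 31 of the 41 (75.6%), against 32% of all promoters. In the 4 promoters of G1 and S cyclins and kinases, matches numbered 0 for E2F, 0 for CHR and 1 for CCAAT.

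The arrays detected between 19177 and 20588 probes each. Values below are background-corrected, quantile-normalized intensities on the log2 scale, and levels are compared between arrays for 1 probe at a time, not between probes. The 67 probes had a median log2 intensity of up to 9.22 on an array, against 5.88 for all kept probes. E2F1 was detected on 3 arrays and PCNA probe ILMN_1685682 on 4. ZFX itself measured 6.06 and 5.99 in H9, 6.26 and 6.12 in clone 3, 7.55 and 7.64 in clone 2 and 7.07 and 7.52 in clone 5. Its level was thus higher on all 4 ZFX arrays than on any control array, with a log2 fold of 1.34 (SE 0.163, limma adjusted p = 0.000184). All 7 pluripotency markers with a probe were detected on both arrays of every line, with summed intensities between 16390 and 18660. Clone 3 differed in other markers. The 5 primitive streak markers summed to 1806 to 1931 there, with TBXT, EOMES, MIXL1 and GSC detected and MESP1 not, against 151.8 to 171.2 in H9, 110.6 to 112.6 in clone 2 and 101.1 to 107.9 in clone 5. None of the 5 was detected in the ZFX clones. The 4 endoderm markers summed to 531.9 to 551.6 in clone 3 and 118.3 to 140.8 in the other lines. FOXA2 carried this difference, with a mean of 8.786 in clone 3, 5.03 in H9, 4.917 in clone 2 and 5.432 in clone 5. In clone 3, SOX17 was detected on 1 array and GATA6 on none. CXCR4 was lower in clone 3 (5.685) than in H9 (5.876). The 7 fibroblast markers summed to 1896 to 1927 in clone 3 and 2772 to 2965 elsewhere. THY1 was the brightest of the 7 in every line (10.991 in H9, 10.468 in clone 3) and weighs most in these sums. COL1A1, COL1A2 and PDGFRB were also lowest in clone 3, and LUM was detected in no line. The sums are thus no measure of fibroblast content. The 3 neuroectoderm markers summed to 153 to 163.1 in the ZFX clones and 115.5 to 125 in the control lines. HES5 carried this difference, with means of 6.166 in H9, 6.228 in clone 3, 6.811 in clone 2 and 6.843 in clone 5. PAX6 was highest in H9 (4.871), and SOX1 was detected in no line. EOMES and MIXL1 were detected on both H9 arrays. Marker levels thus differ in the comparisons of ZFX clones with H9 as well as in those with clone 3. Their part in the results below was not tested. In such bulk samples, fewer cells of a type or phase and less RNA per cell cannot be told apart.

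Replicate arrays were close for these genes. The median SD within a line was 0.0892 for the 67 probes and 0.133 for all kept probes, while the median SD of the 4 line means was 0.163 for the 67 probes and 0.146 for all. H9 was the highest line for 23 probes (34.3%, against 27.5% of all probes) and the lowest for 19 (28.4%, against 24.3%). Clone 3 was the highest for 20 (29.9%, against 28.5%) and the lowest for 18 (26.9%, against 30.6%). Clone 2 was the highest line for 7 probes (10.4%, against 23.2% of all probes) and the lowest for 21 (31.3%, against 25.4%). Clone 5 was the highest for 17 (25.4%, against 20.8%) and the lowest for 9 (13.4%, against 19.6%).

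**Figure D1:**
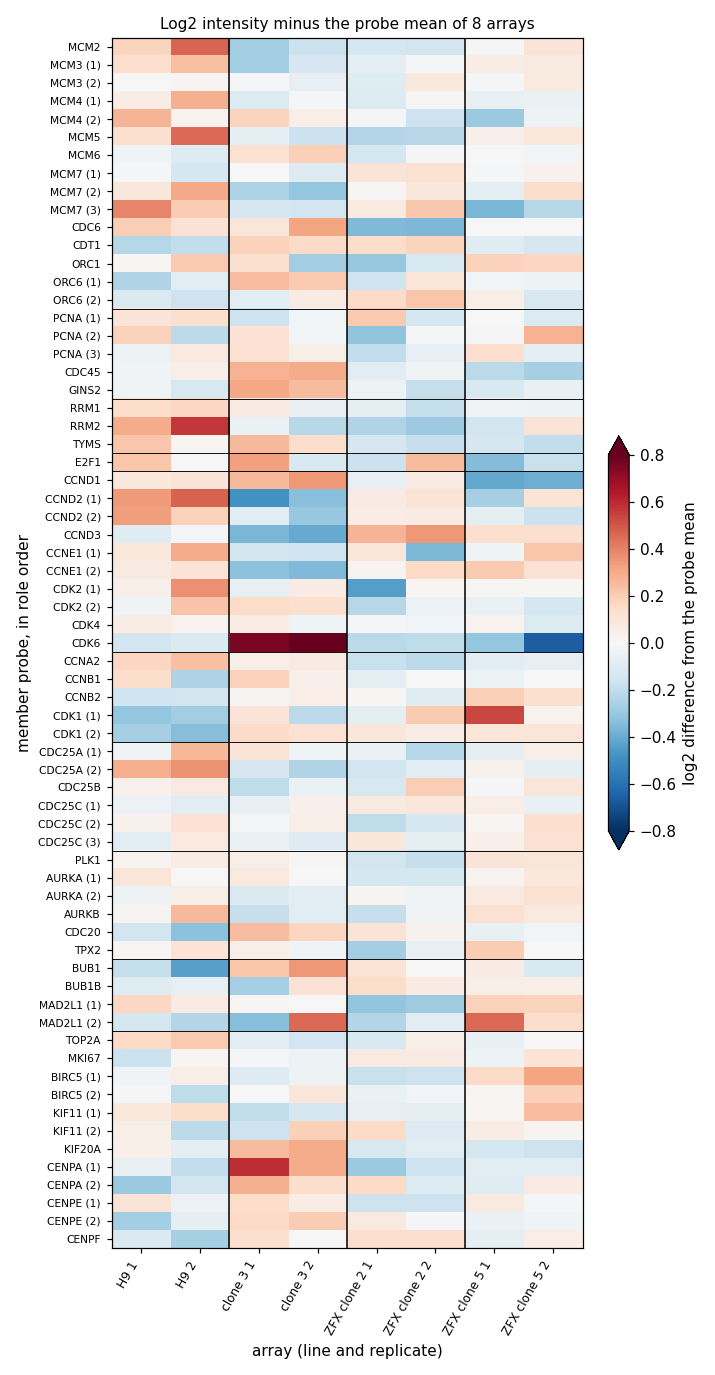
Log2 intensity of each of the 67 probes (rows, in role order) minus its mean over the 8 arrays (columns, 2 per line), as a colour from blue (lower) to red (higher); where a gene has several probes, they are numbered in order of probe identifier. CDK6 stands out as red in both clone 3 arrays, and RRM2, MCM2 and MCM5 as red in H9.

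The first comparison asked whether these genes differed between the ZFX lines and the control lines, with the line as a random block. None of the 67 probes was called at an adjusted p under 0.05, against 1.63% of all probes (1.03% higher and 0.606% lower) and 2.13% of those detected on all 8 arrays, and the smallest adjusted p was 0.0608 (limma). At an unadjusted p under 0.05 there were 9 of the 67 (13.4%), against 9.94% of all probes. The median log2 fold was -0.06 for the 67 probes and -0.0043 for all, and 1 probe exceeded 1.5-fold. For 58 of the 67 the 95% interval of the fold lay within 1.5-fold in either direction, and for 66 within 2-fold. These intervals use 1 correlation of arrays of a line, 0.3521, for all probes. The 67 had less median SD within lines than all probes (0.0892 against 0.133) and more between line means (0.163 against 0.146). With 2 lines a side the intervals may thus be too narrow for them, and larger differences are not excluded. Set against each control line in turn, both ZFX clones were lower for 14 probes and higher for 8, and 45 were mixed. This count was not made over all probes and its comparisons share arrays, so no lean of these genes can be read from it. The absence of calls depended on the processing and the model. CDK6 and CCND1 were called as lower when arrays were scaled to a common median, and CCND3 as higher when the second H9 array was left out. There were 2 calls when line was ignored (651 over all 23280 probes) and 16 when it was fixed (3287 over all). Against H9 alone there were 6 (1224 over all), and against clone 3 alone 12 (3092 over all). The 2 calls with line ignored were near the share over all probes. Median scaling gave 538 calls over all probes.

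The 4 ZFX arrays did not overlap the 4 control arrays for 9 of the 67 probes (13.4%), against 9.63% of all probes. CCND3 lay above (5.12% of all probes did), and 8 probes lay below (4.5% of all): MCM4 (ILMN_2412860), CDC6, TYMS, CCND1, CDK2 (ILMN_1665559), CDK6, CCNA2 and KIF20A. None of these 9 passed the adjusted test.

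**Figure D2:**
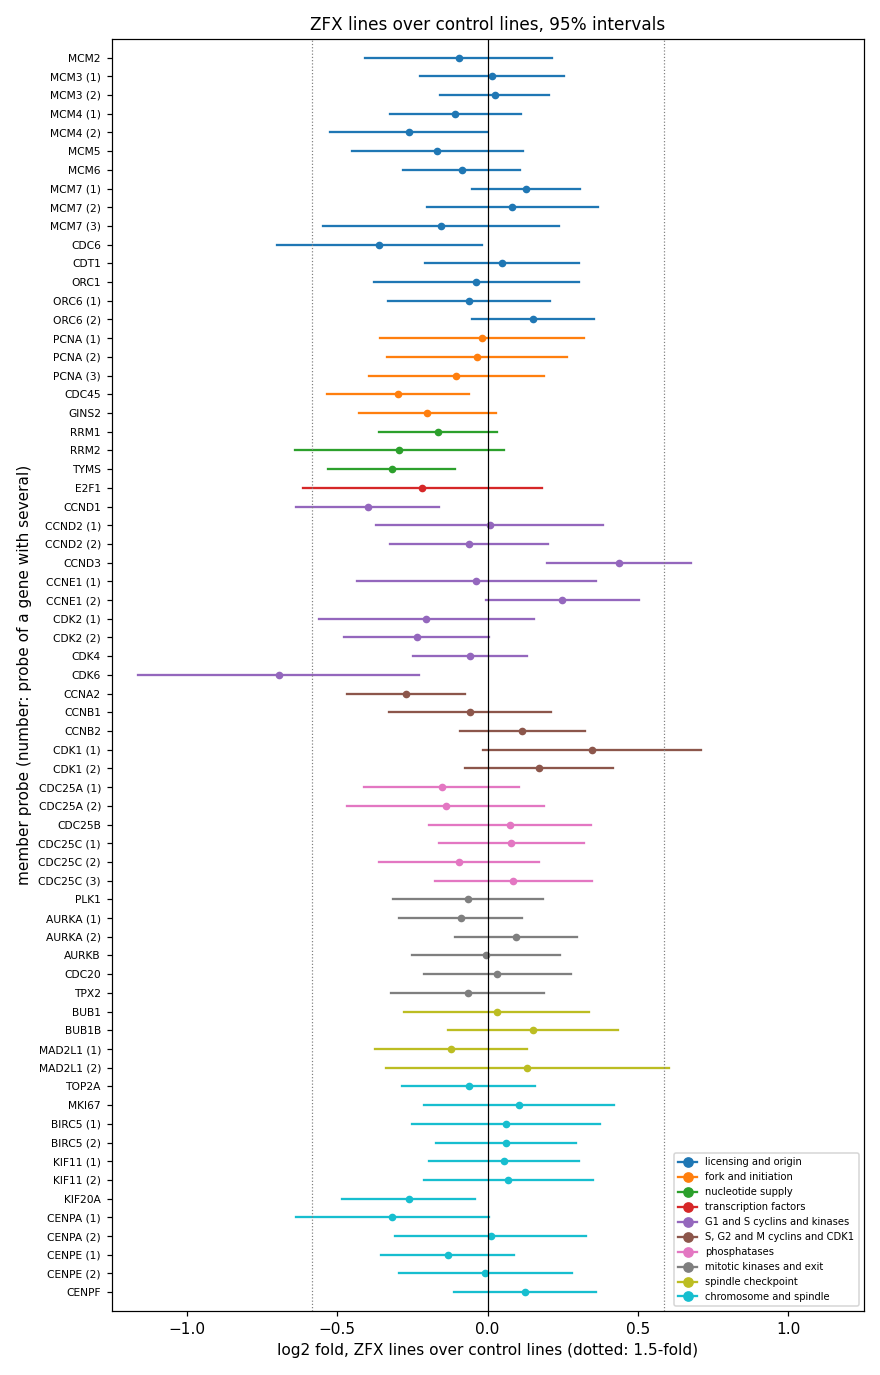
Log2 fold of the ZFX lines over the control lines for each of the 67 probes (points) with its 95% interval (bars), coloured by role; dotted lines mark 1.5-fold in either direction. Only CDK6 lies beyond a dotted line, and CCND3 is the highest point.

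Between single lines, differences were more frequent, and most frequent between the control lines. These tests rest on the spread within lines alone. Clone 3 differed from H9 in 27 of the 67 probes (40.3%), against 19% of all probes. Of these, 14 were higher (9.18% of all) and 13 lower (9.8% of all). Clone 2 differed from H9 in 17 (25.4%), against 14.3% of all, with 7 higher (7.65% of all) and 10 lower (6.63% of all). Clone 5 differed from H9 in 9 (13.4%), against 5.07%, with 3 higher (2.77%) and 6 lower (2.3%). Against clone 3, clone 2 differed in 17 probes (25.4%), against 15.3% of all, with 5 higher (8.2%) and 12 lower (7.12%). Clone 5 differed from clone 3 in 16 (23.9%), against 16.4% of all, with 6 higher (8.74%) and 10 lower (7.68%). The ZFX clones differed from each other in 2 probes (2.99%), against 2.93% of all, with 1 higher in clone 5 (1.05%) and 1 lower (1.87%). In the F test over the 4 lines, 36 of the 67 probes passed (53.7%), against 27.4% of all. Brighter probes are called more often: among the 15097 probes detected on all 8 arrays, which hold 65 of the 67, the shares called for these 65 and for all were 41.5% and 26.4% for clone 3 over H9, 26.2% and 20.1% for clone 2 over H9, and 13.8% and 7.22% for clone 5 over H9. They were 26.2% and 20.3% for clone 2 over clone 3, 24.6% and 22.3% for clone 5 over clone 3, 3.08% and 4.22% for clone 5 over clone 2, and 55.4% and 38% in the F test. The comparisons with H9 share the H9 arrays and those with clone 3 the clone 3 arrays, so their values are given side by side.

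Nearly all differences were small. Over 1.5-fold, there were 3 probes for clone 3 over H9, 3 for clone 2 over clone 3, 2 for clone 5 over clone 3, 1 for each ZFX clone over H9 and 0 between the ZFX clones. Over 2-fold, only CDK6 in each ZFX clone against clone 3 remained. Its fold over clone 3 depended on the processing. Over 17 alternatives of processing or arrays it ran from -1.1618 to -0.575 in clone 2 and from -1.4907 to -0.69 in clone 5. The counts depended on the scaling between arrays: with arrays scaled to a common median in place of quantile normalization, 4 probes were called for clone 3 over H9, 1 for clone 2 over H9, 0 for clone 5 over H9, 4 and 2 for clones 2 and 5 over clone 3, 0 between the ZFX clones and 5 in the F test. Calls over all probes also fell, from 4417 to 1451 for clone 3 over H9, 3324 to 703 for clone 2 over H9 and 1180 to 249 for clone 5 over H9. Over clone 3 they fell from 3566 to 1554 in clone 2 and from 3823 to 1546 in clone 5, and between the ZFX clones from 681 to 49. Under median scaling the share of the 67 called was not above that of all probes in any pair. For the F test under median scaling the count over all probes is not given, so its count has no such comparison. Of the 67, the probes still called in pairs were RRM2 (clone 2 over H9), CDC6, CDK6, CENPA and GINS2 (clone 2 over clone 3), CCND1 and CDK6 (clone 5 over clone 3), and BUB1, CCND2, CDK6 and CENPA (clone 3 over H9). Under median scaling the array medians of the 67 probes spread from 8.83 to 9.31. In each of the fits named next, calls over all probes fell as well, so these falls are not particular to the 67. Leaving out single arrays gave as few as 17 calls for clone 3 over H9 (without the second clone 3 array), 8 for clone 2 over H9 (without the second H9 array), 3 for clone 5 over H9 (without the first clone 5 array), 8 for clone 2 over clone 3 (without the second clone 3 array) and 9 for clone 5 over clone 3 (without the first clone 3 array). Of the 88 calls of the 67 probes between pairs of lines, 38 passed whichever single array was left out and 50 were lost without at least 1.

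**Figure D3:**
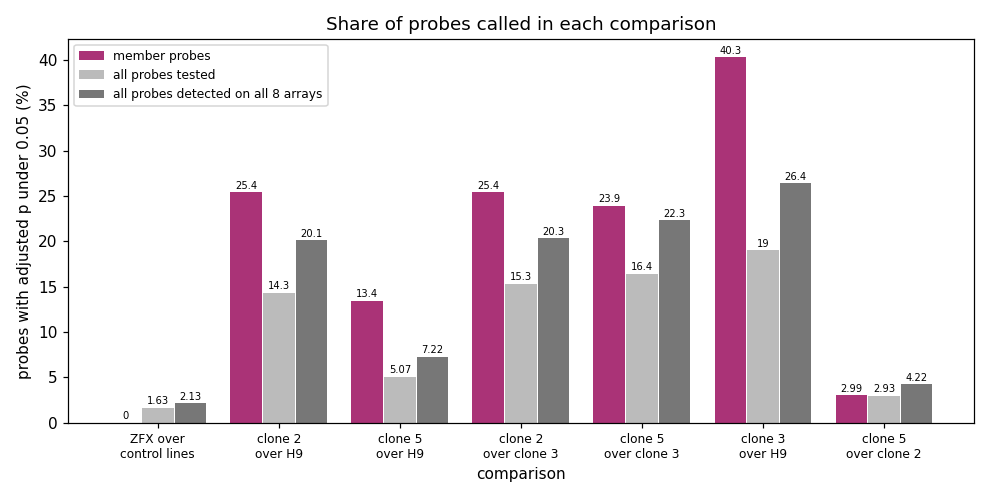
Percent of probes with an adjusted p under 0.05 (limma) in each comparison, for the 67 probes, for all 23280 probes tested and for the 15097 detected on all 8 arrays. The bars of the 67 probes run from 0 for ZFX over control lines to 40.3% for clone 3 over H9.

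The G1 cyclins and their kinases held the widest differences, and the members did not move as a block. CDK6, a kinase partner of the D-type cyclins, measured 6.47 and 6.51 in H9, 7.38 and 7.52 in clone 3, 6.41 and 6.42 in clone 2 and 6.32 and 5.96 in clone 5. Both clone 3 arrays lay above the other 6, which spread from 5.96 to 6.51. The log2 fold was 0.96 for clone 3 over H9 (SE 0.137, limma adjusted p = 6.29e-06), -1.04 for clone 2 over clone 3 (adjusted p = 1.54e-06) and -1.31 for clone 5 over clone 3 (adjusted p = 2.37e-08). Against H9 the ZFX clones gave -0.08 (adjusted p = 0.795) and -0.35 (adjusted p = 0.154). For ZFX over control lines the fold was -0.69 (SE 0.222, limma adjusted p = 0.169), and the control lines differed from each other by more than either ZFX clone did from H9. CDK4, the kinase with the same cyclin partners, had line means that spanned 0.0861 and passed in no comparison.

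CCND1 (cyclin D1) measured 11.54 and 11.56 in H9, 11.72 and 11.80 in clone 3, 11.39 and 11.52 in clone 2 and 11.05 and 11.07 in clone 5. Clone 5 was the lowest line, with no overlap with any other. Its fold was -0.50 over H9 (SE 0.0794, limma adjusted p = 0.000144), -0.70 over clone 3 (adjusted p = 9.65e-08) and -0.40 over clone 2 (adjusted p = 0.004). Clone 2 over clone 3 was -0.30 (adjusted p = 0.00826) and gave -0.09 over H9 (adjusted p = 0.508). Without the second clone 2 array, clone 5 over clone 2 was -0.34 (adjusted p = 0.0963). For ZFX over control lines the fold was -0.40 (SE 0.114, adjusted p = 0.102).

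CCND3 (cyclin D3) ran the other way. It measured 9.39 and 9.47 in H9, 9.12 and 9.08 in clone 3, 9.76 and 9.83 in clone 2 and 9.61 and 9.61 in clone 5. Every ZFX array was above every control array, and clone 3 was below H9. The pooled fold of 0.44 (SE 0.113, limma adjusted p = 0.0608) was the nearest of the 67 to the threshold, and it became 0.49 with an adjusted p of 0.0239 when the second H9 array was left out. Clone 2 was higher than H9 by 0.36 (SE 0.0837, adjusted p = 0.0031; 0.0527 without the second clone 2 array), while clone 5 over H9 gave 0.18 (adjusted p = 0.255). Over clone 3 the rises were 0.69 in clone 2 (adjusted p = 3.16e-07) and 0.51 in clone 5 (adjusted p = 4.27e-05), and clone 3 over H9 was -0.33 (adjusted p = 0.00516).

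CCND2 (cyclin D2) was highest in H9 and lowest in clone 3. Its probe ILMN_1667081 measured 10.30 and 10.44 in H9, 9.48 and 9.63 in clone 3, 10.03 and 10.07 in clone 2 and 9.70 and 10.07 in clone 5. Both ZFX clones lay between the control lines. Clone 3 over H9 was -0.82 (SE 0.0979, limma adjusted p = 4.08e-07), clone 5 over H9 was -0.48 (adjusted p = 0.00219) and clone 2 over H9 was -0.32 (adjusted p = 0.0267), while over clone 3 the ZFX clones rose by 0.50 (adjusted p = 0.000478) and 0.33 (adjusted p = 0.0183). The clone 5 values rested on single arrays: without the first clone 5 array its fold over H9 was -0.30 (adjusted p = 0.135), and without the second its fold over clone 3 was 0.14 (adjusted p = 0.466). The second probe, ILMN_2067656, had the same signs in these 5 comparisons and passed in 3 of them, with -0.45 for clone 3 over H9 (adjusted p = 0.00026). CCNE1 (cyclin E1, partner of CDK2) on probe ILMN_2374425 measured 9.52 and 9.56 in H9, 9.12 and 9.10 in clone 3, 9.47 and 9.61 in clone 2 and 9.66 and 9.56 in clone 5. Clone 3 alone was low: -0.43 against H9 (SE 0.0856, adjusted p = 0.000479), with 0.43 for clone 2 and 0.50 for clone 5 over clone 3 (adjusted p = 0.000551 and 7.75e-05). The dimmer CCNE1 probe, ILMN_1733419, passed in no comparison. Over the 10 probes of this role, clone 3 over H9 had 1 rise (CDK6) and 4 falls (both CCND2 probes, CCND3, CCNE1).

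**Figure D4:**
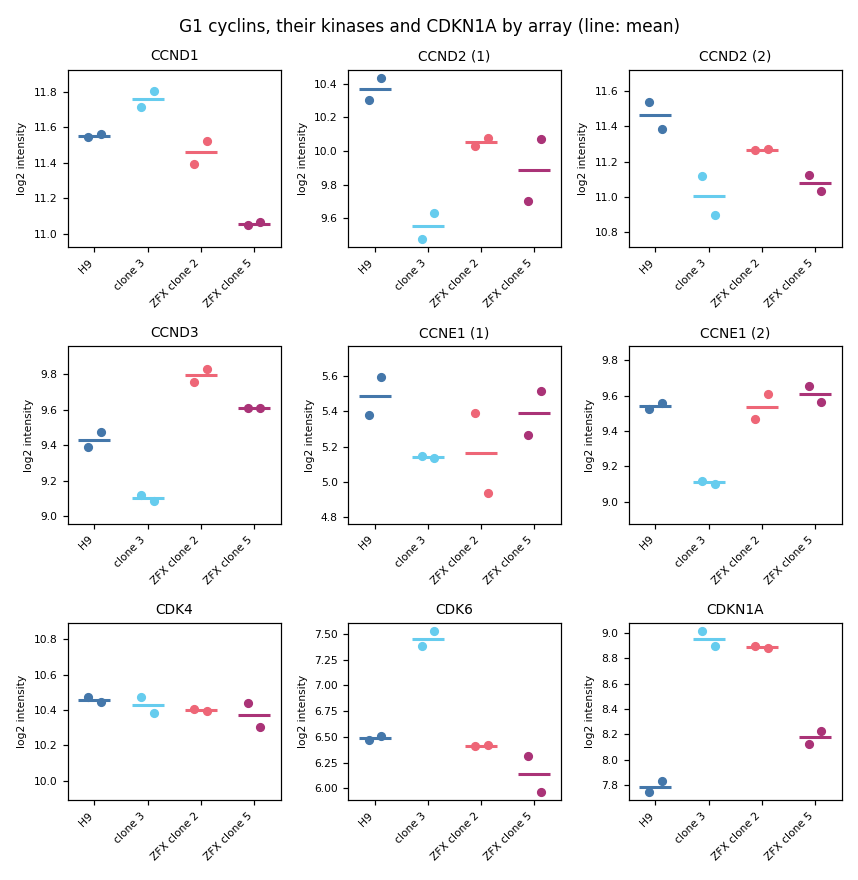
Log2 intensity of the G1 cyclins, CDK4, CDK6 and the inhibitor CDKN1A on each array (points; horizontal lines are line means), each panel with its own axis, which does not start at 0. Clone 3 is apart for CDK6, CCND3, CCNE1 (2) and CCND2 (1), and clone 5 is lowest for CCND1.

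Licensing and origin factors (15 probes of 10 genes) held calls in both directions for clone 3 over H9, clone 2 over H9 and both ZFX clones over clone 3. There was 1 fall (MCM7) for clone 5 over H9, and 0 were called between the ZFX clones. For clone 3 over H9, 3 probes were higher (MCM6, CDT1, ORC6) and 4 lower (MCM2, MCM3, MCM5, MCM7). MCM2, a subunit of the replicative helicase, measured 9.11 and 9.39 in H9, 8.65 and 8.75 in clone 3, 8.79 and 8.78 in clone 2 and 8.92 and 9.03 in clone 5. H9 was the highest line, above all other arrays. Clone 3 over H9 was -0.55 (SE 0.0967, limma adjusted p = 0.000119) and clone 2 over H9 -0.47 (adjusted p = 0.00118), with -0.28 for clone 5 (adjusted p = 0.104). Without the second H9 array, clone 2 over H9 was -0.32 (adjusted p = 0.0558). MCM5, another subunit of the same ring, was also highest in H9, with 9.98 and 10.30 in H9, 9.78 and 9.68 in clone 3, 9.61 and 9.63 in clone 2 and 9.89 and 9.93 in clone 5. Its fold was -0.52 for clone 2 over H9 (SE 0.0925, adjusted p = 0.000247) and -0.41 for clone 3 over H9 (adjusted p = 0.00175).

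CDT1, which loads the MCM helicase at origins, went the other way: 9.16 and 9.19 in H9, 9.57 and 9.54 in clone 3, 9.53 and 9.57 in clone 2 and 9.29 and 9.25 in clone 5. Clones 2 and 3 were the high pair, each 0.38 over H9 (SE 0.0833, limma adjusted p = 0.00228 and 0.00143), and clone 5 over H9 gave 0.10 (adjusted p = 0.622). CDC6, which recruits the MCM helicase together with CDT1, measured 5.98 and 5.90 in H9, 5.88 and 6.10 in clone 3, 5.44 and 5.43 in clone 2 and 5.78 and 5.79 in clone 5. All ZFX arrays were below all control arrays, with clone 2 the lowest. Clone 2 was lower than both control lines, with -0.51 over H9 (SE 0.156, adjusted p = 0.0248) and -0.56 over clone 3 (adjusted p = 0.0124). Clone 5 gave -0.16 and -0.21 (adjusted p = 0.674 and 0.425), and the pooled fold was -0.36 (SE 0.162, adjusted p = 0.451). The call for clone 2 over H9 was lost without any 1 of the 4 arrays compared (adjusted p up to 0.113), and that over clone 3 without either clone 2 array or the second clone 3 array (up to 0.162).

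The 3 MCM7 probes did not give the same picture. Probe ILMN_1704702 measured 9.20 and 9.41 in H9, 8.86 and 8.80 in clone 3, 9.12 and 9.20 in clone 2 and 9.04 and 9.25 in clone 5, so clone 3 was low, and clones 2 and 5 were 0.33 and 0.31 above it (SE 0.095, limma adjusted p = 0.0168 and 0.0221). Without the second clone 5 array, clone 5 over clone 3 was 0.20 (adjusted p = 0.304), and both calls were lost without either clone 3 array. The dim probe ILMN_1800654 measured 5.89 and 5.71 in H9, 5.37 and 5.35 in clone 3, 5.57 and 5.72 in clone 2 and 5.14 and 5.27 in clone 5, with clone 5 over H9 at -0.60 (SE 0.164, adjusted p = 0.0293), a call lost without any 1 of the 4 arrays compared (up to 0.197). The third probe, ILMN_1663195, passed in none. A similar split held for MCM3, where ILMN_1806818 was lower in clone 3 than in H9 (-0.39, SE 0.082, adjusted p = 0.000848) and ILMN_2224143 had the smallest range of line means of all 67 probes, 0.0692.

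At the replication fork, CDC45 and GINS2, both parts of the active helicase, were highest in clone 3. CDC45 measured 8.93 and 9.01 in H9, 9.23 and 9.25 in clone 3, 8.87 and 8.93 in clone 2 and 8.74 and 8.69 in clone 5. The GINS2 values were 10.67 and 10.58 in H9, 11.02 and 10.96 in clone 3, 10.67 and 10.52 in clone 2 and 10.59 and 10.65 in clone 5. For both genes the 2 clone 3 arrays lay above the other 6. CDC45 was 0.28 over H9 in clone 3 (SE 0.0875, limma adjusted p = 0.0255), and clones 2 and 5 gave -0.34 and -0.53 over clone 3 (adjusted p = 0.00613 and 4.96e-05). The CDC45 call for clone 3 over H9 was lost without either clone 3 array or the first H9 array. GINS2 was 0.36 over H9 in clone 3 (SE 0.0815, adjusted p = 0.00178), with -0.39 and -0.37 for the ZFX clones over clone 3 (adjusted p = 0.00087 and 0.00141). The 3 probes of PCNA, the sliding clamp, passed in none of the comparisons.

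Of the nucleotide supply enzymes, all 3 were lower in clone 2 than in H9. RRM2, the regulated subunit of ribonucleotide reductase, measured 8.18 and 8.45 in H9, 7.83 and 7.66 in clone 3, 7.64 and 7.59 in clone 2 and 7.73 and 7.99 in clone 5. Both H9 arrays were above the other 6. Clone 2 over H9 was -0.70 (SE 0.113, limma adjusted p = 7.85e-05), clone 3 over H9 was -0.57 (adjusted p = 0.000486) and clone 5 over H9 was -0.46 (adjusted p = 0.0128). Clone 5 over H9 was -0.33 (adjusted p = 0.223) without the first clone 5 array and -0.32 (adjusted p = 0.228) without the second H9 array. With all arrays, the fall in the control clone thus lay between those in the ZFX clones. RRM1, the large subunit, gave -0.29 for clone 2 over H9 (SE 0.0805, adjusted p = 0.0138), and passed in no other comparison except the F test. TYMS, thymidylate synthase, was lower in clone 2 than in H9 (-0.28, SE 0.0878, adjusted p = 0.0327) and lower in both ZFX clones than in clone 3 (-0.36 each, adjusted p = 0.00464 and 0.00366), with -0.28 for clone 5 over H9 (adjusted p = 0.0594) and a pooled fold of -0.32 (SE 0.101, adjusted p = 0.161). The TYMS call for clone 2 over H9 was lost without either clone 2 array or the first H9 array. E2F1, the single transcription factor with a kept probe, was not called in any comparison.

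CDK1, the mitotic kinase, was lowest in H9 on both probes. Probe ILMN_1747911 measured 9.60 and 9.52 in H9, 10.01 and 9.98 in clone 3, 9.96 and 9.92 in clone 2 and 9.96 and 9.96 in clone 5. All 3 clones lay above H9 and close to each other, by 0.44 in clone 3 (SE 0.0809, limma adjusted p = 0.000199), 0.38 in clone 2 (adjusted p = 0.0015) and 0.40 in clone 5 (adjusted p = 0.00216). The dimmer probe ILMN_1710428 measured 6.93 and 6.96 in H9, 7.34 and 7.03 in clone 3, 7.16 and 7.45 in clone 2 and 7.78 and 7.27 in clone 5, and only clone 5 over H9 passed, at 0.58 (SE 0.142, adjusted p = 0.0128). That fold was 0.32 (adjusted p = 0.345) without the first clone 5 array, and the call was also lost without either H9 array. For ZFX over control lines this probe gave 0.35 (SE 0.173, adjusted p = 0.543). CCNB2 (cyclin B2, a CDK1 partner) measured 10.41 and 10.42 in H9, 10.59 and 10.62 in clone 3, 10.58 and 10.47 in clone 2 and 10.76 and 10.70 in clone 5. It was highest in clone 5, 0.31 over H9 (SE 0.0794, adjusted p = 0.0158), and passed in no other pair. This call was lost without the first clone 5 array (adjusted p = 0.132) or either H9 array. CCNA2 (cyclin A2, active from S phase on) fell in both ZFX clones against H9, with log2 folds of -0.40 in clone 2 (SE 0.079, adjusted p = 0.000686) and -0.28 in clone 5 (adjusted p = 0.0303), and in clone 2 against clone 3 (-0.26, adjusted p = 0.0242). The fold for ZFX over control lines was -0.27 (SE 0.0927, adjusted p = 0.211). The CCNA2 call for clone 5 over H9 was lost without either clone 5 array or the second H9 array. Its call for clone 2 over clone 3 was lost without any 1 of the arrays compared.

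CDC25A, a phosphatase that activates the cyclin-dependent kinases, on probe ILMN_1733396 measured 7.19 and 7.26 in H9, 6.76 and 6.66 in clone 3, 6.74 and 6.82 in clone 2 and 6.93 and 6.82 in clone 5. H9 stood above every clone. Clone 3 over H9 was -0.51 (SE 0.122, limma adjusted p = 0.00315; 0.0533 without the second clone 3 array) and clone 2 over H9 -0.44 (adjusted p = 0.0133), with -0.35 for clone 5 (adjusted p = 0.104). No other phosphatase probe, of the 6 for CDC25A, CDC25B and CDC25C, passed in any pair.

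In mitosis, several genes were higher in clone 3 than in H9. BUB1, a kinase of the spindle checkpoint, measured 9.86 and 9.61 in H9, 10.27 and 10.39 in clone 3, 10.16 and 10.05 in clone 2 and 10.11 and 9.93 in clone 5. Clone 3 was the highest line and H9 the lowest, with the ZFX clones between. Clone 3 over H9 was 0.60 (SE 0.092, limma adjusted p = 1.95e-05), clone 2 over H9 was 0.37 (adjusted p = 0.00602) and clone 5 over clone 3 was -0.31 (adjusted p = 0.0185). Without the second H9 array, clone 2 over H9 was 0.25 (adjusted p = 0.147). CDC20, the activator of the anaphase-promoting complex, had the same order: 11.87 and 11.70 in H9, 12.27 and 12.20 in clone 3, 12.14 and 12.06 in clone 2 and 11.97 and 12.01 in clone 5. Its fold was 0.45 for clone 3 over H9 (SE 0.0816, adjusted p = 0.000156), 0.31 for clone 2 over H9 (adjusted p = 0.00859) and -0.25 for clone 5 over clone 3 (adjusted p = 0.0346). The last call was lost without any 1 of the arrays compared, and that for clone 2 over H9 without the first clone 2 or the second H9 array.

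CENPA, the centromeric histone H3 variant, on probe ILMN_1801257 measured 8.52 and 8.38 in H9, 9.17 and 8.87 in clone 3, 8.28 and 8.41 in clone 2 and 8.49 and 8.49 in clone 5. Both clone 3 arrays were above the other 6. Clone 3 over H9 was 0.57 (SE 0.101, limma adjusted p = 0.000126), clone 2 over clone 3 was -0.67 (adjusted p = 1.25e-05) and clone 5 over clone 3 was -0.53 (adjusted p = 0.000296). The second CENPA probe, ILMN_2392472, was also higher in clone 3 than in H9 (0.44, SE 0.118, adjusted p = 0.00836), but its folds of the ZFX clones over clone 3, -0.19 and -0.23, did not pass. Over the 12 probes of chromosome and spindle genes, clone 3 over H9 had 5 rises (KIF20A, both CENPA probes, CENPE, CENPF) and 2 falls (TOP2A, KIF11). KIF20A, a cytokinesis motor, was lower in both ZFX clones than in clone 3 (-0.39 and -0.43, SE 0.0828, adjusted p = 0.00121 and 0.000352). MKI67, the proliferation marker Ki-67, passed in no comparison, nor did PLK1, TPX2, AURKA, BUB1B or BIRC5. AURKB passed in the F test and, among pairs, only as lower in clone 3 than in H9. That pair call was lost without either clone 3 array or the second H9 array.

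**Figure D5:**
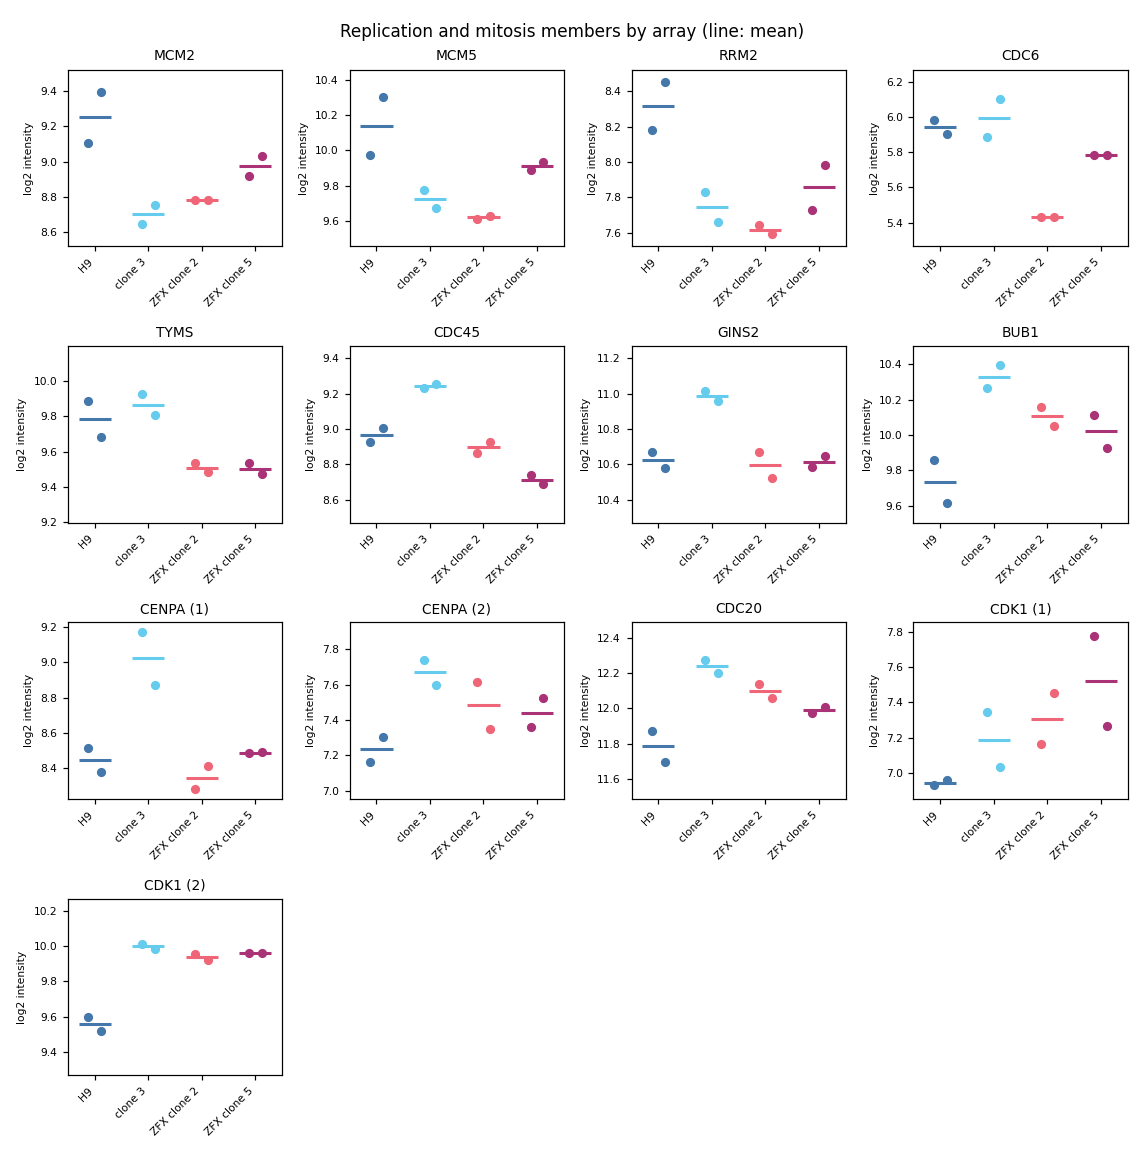
Log2 intensity of replication and mitosis genes on each array (points; horizontal lines are line means), each panel with its own axis, which does not start at 0. H9 is highest for MCM2, MCM5 and RRM2, and clone 3 for CDC45, GINS2, BUB1, CENPA (1) and CDC20.

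The ZFX clones were compared directly to ask whether these genes differed between them. Besides CCND1, only MAD2L1 passed. This spindle checkpoint protein, on probe ILMN_1777564, measured 10.48 and 10.38 in H9, 10.32 and 10.31 in clone 3, 9.99 and 10.03 in clone 2 and 10.49 and 10.49 in clone 5. Clone 2 was below all other arrays, with clone 5 over clone 2 at 0.48 (SE 0.0796, limma adjusted p = 0.000577), clone 2 over H9 at -0.42 (adjusted p = 0.000496) and clone 2 over clone 3 at -0.31 (adjusted p = 0.00741). The second MAD2L1 probe, ILMN_2112460, gave 0.46 for clone 5 over clone 2 and did not pass.

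Other genes of the same pathway, 97 in a list of CDK inhibitors, RB and E2F proteins, replication, checkpoint and mitosis genes, were kept for 90 genes and 130 probes. For ZFX over control lines 0 of the 130 passed in limma, and 14 (10.8%, against 9.94% of all probes) had an unadjusted p under 0.05. Clone 3 over H9 had 21 rises and 8 falls (22.3%, against 19% of all probes), clone 2 over H9 had 15 and 19 (26.2%, against 14.3%), and clone 5 over H9 had 6 and 3 (6.92%, against 5.07%). Over clone 3 there was 1 rise with 21 falls in clone 2 (16.9%, against 15.3%) and 5 rises with 16 falls in clone 5 (16.2%, against 16.4%). Between the ZFX clones there were 2 rises and 5 falls in clone 5 (5.38%, against 2.93%).

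CDKN1A, the inhibitor p21 that restrains cyclin-dependent kinases, had the widest difference of the list. It measured 7.74 and 7.83 in H9, 9.01 and 8.89 in clone 3, 8.90 and 8.88 in clone 2 and 8.13 and 8.23 in clone 5. Clones 3 and 2 were high, clone 5 between and H9 low, without overlap between these levels. The fold over H9 was 1.16 in clone 3 (SE 0.0945, limma adjusted p = 2.2e-10), 1.10 in clone 2 (adjusted p = 2.42e-09) and 0.39 in clone 5 (adjusted p = 0.011), so control and ZFX lines were both among the high ones. CDKN3, a phosphatase that acts on cyclin-dependent kinases, was lower in clones 2 and 5 than in clone 3 (-0.82 and -0.83, SE 0.0892, adjusted p = 4.58e-08 and 3.59e-08), with means of 8.79 in H9, 9.36 in clone 3, 8.54 in clone 2 and 8.53 in clone 5.

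Of the 48 replication probes of this list, 6 were higher and 5 lower in clone 3 than in H9. Among the lower, PRIM1, the catalytic subunit of primase, on probe ILMN_1694502 had log2 folds over H9 of -0.69 in clone 3, -0.62 in clone 2 and -0.53 in clone 5 (SE 0.0946, limma adjusted p = 3.87e-06, 3.82e-05 and 0.000615). TK1, thymidine kinase, gave -0.56, -0.68 and -0.35 in the same order (SE 0.097, adjusted p = 9.92e-05, 1.47e-05 and 0.0314). CHEK2, a DNA damage checkpoint kinase, on probe ILMN_2395236 was 0.68 higher in clone 3 than in H9 (SE 0.0909, adjusted p = 2.42e-06), and RFC2, a subunit of the clamp loader, was 0.61 higher (SE 0.163, adjusted p = 0.0078). In clone 2, PKMYT1, an inhibitory kinase of CDK1, on probe ILMN_2401436 was -0.71 over H9 (SE 0.183, adjusted p = 0.00842). It measured 5.81 and 6.51 in H9 and 5.60 and 5.30 in clone 2, and its fold was -0.36 (adjusted p = 0.317) without the second H9 array and -0.56 (adjusted p = 0.12) without the second clone 2 array. In the same clone the mitotic kinase NEK2 was 0.60 over H9 (SE 0.117, adjusted p = 0.00063) and the kinetochore subunit SPC24 was 0.52 (SE 0.0959, adjusted p = 0.000341). In clone 5, ECT2, which drives cytokinesis, was 0.51 over H9 (SE 0.101, adjusted p = 0.00161), the retinoblastoma-related RBL2 was 0.50 (SE 0.116, adjusted p = 0.00769), the spindle protein HMMR was 0.44 (SE 0.103, adjusted p = 0.00859) and E2F5 was -0.35 (SE 0.0854, adjusted p = 0.0102). Without the second H9 array, ECT2 was 0.32 (adjusted p = 0.0933) and HMMR 0.26 (adjusted p = 0.26). Without the first clone 5 array, the calls of TK1, RBL2, HMMR and E2F5 for clone 5 over H9 were lost, and without the second clone 3 array that of RFC2. The TK1 and RBL2 calls were also lost without the second clone 5 array, and TK1 without the second H9 array. Those of RBL2 and RFC2 were also lost without the first H9 array.

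Against clone 3, clone 2 was lower in UBE2C, a ubiquitin-conjugating enzyme of the anaphase-promoting complex, at -0.60 (SE 0.132, limma adjusted p = 0.00177), and in the repressor E2F8 at -0.59 (SE 0.172, adjusted p = 0.0177). CKS2, a small binding partner of cyclin-dependent kinases, was its single rise, 0.26 (SE 0.0801, adjusted p = 0.0261). Clone 5 was lower than clone 3 in CDKN1A at -0.78 (SE 0.0945, adjusted p = 3.82e-07) and in LIN54, a DNA-binding subunit of the DREAM complex, at -0.75 (SE 0.155, adjusted p = 0.000769). It was higher in POLD1, the catalytic subunit of DNA polymerase delta, by 0.41 (SE 0.117, adjusted p = 0.0135), in the E2F partner TFDP1 by 0.33 (SE 0.0851, adjusted p = 0.00684), and in PRIM1 on probe ILMN_2210129 by 0.32 (SE 0.102, adjusted p = 0.0282). The last was 0.16 (adjusted p = 0.463) without the second clone 5 array. The calls of E2F8 and CKS2 against clone 3 were lost without any 1 of the arrays compared. Those of POLD1, TFDP1 and PRIM1 were each lost without the second clone 3 array or the second clone 5 array. The POLD1 call was also lost without the first clone 5 array, and that of PRIM1 without the first clone 3 array.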

How the data were processed

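RNA of 4 lines was measured on 8 Illumina bead arrays, grouped by their titles. The linear probe intensity that the authors deposited is not normalized, as its array medians of 60.4 to 67.8 show, and the same table holds a deposited detection p-value for each probe. The authors also deposited processed values, log2 judged from the values themselves, used here as an alternative. Per the submitters' processing notes the software was BeadStudio; its version and other steps are not given in the sources used here.

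Intensities were corrected by normexp (offset 16, with background inferred from detection p-values), quantile normalized and put on the log2 scale with limma 3.58.1 in R 4.3.3. The 23280 probes detected on at least 2 arrays (p under 0.05) were tested singly by lmFit and eBayes with an intensity trend. ZFX and control lines were compared with line as a random block (correlation of arrays of a line 0.3521). Pairs of lines were contrasts of 4 line means, with p-values set by the spread within lines. Benjamini-Hochberg adjustment ran over all tested probes, with calls at 0.05, and the fits were tested on simulated data. The number of arrays limits the precision. Symbols come from the platform annotation (28098 probes with 1 symbol).

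The genes, the lists and the rules were chosen with earlier results of these data known, so no list was given a p. Array values are printed for probes called for ZFX over control lines, for the 4 largest rises and 4 largest falls called in each pair of lines, and for the 3 largest folds each way for ZFX over control lines. Other pathway genes are named as the 3 largest called each way in a pair. CDK4, TYMS, RRM1, CCNA2, KIF20A, the second probes of named genes and genes given without array values were named after their values were seen. Alternatives varied background correction, normalization, filter, model and arrays. Figures used matplotlib 3.10.9 in Python 3.11.15.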

Additional observations from a re-analysis of the deposited data

Results flagged for a closer look

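Clone 5 was tested directly against clone 2, which is the difference of their effects against either control. Among the 67 probes, 2 passed (limma). CCND1 gave a log2 fold of -0.40 (SE 0.0794, adjusted p = 0.004), lower on both clone 5 arrays, and -0.34 (adjusted p = 0.0963) without the second clone 2 array. MAD2L1 on probe ILMN_1777564 gave 0.48 (SE 0.0796, adjusted p = 0.000577), with both clone 2 arrays below the other 6.

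From the list of other pathway genes, the largest called each way were CDKN1A, SPC24, DUT, KIF4A and CKS1B. CDKN1A gave -0.71 (SE 0.0945, limma adjusted p = 3.04e-05). SPC24, a kinetochore subunit, gave -0.44 (SE 0.0959, adjusted p = 0.00898). DUT, which breaks down dUTP, gave -0.43 on probe ILMN_2374778 (SE 0.113, adjusted p = 0.029), where the clone 5 arrays measured 8.62 and 9.19, and its other kept probes did not pass. The DUT fold was -0.15 (adjusted p = 0.581) without the first clone 5 array and -0.72 without the second, and the call was lost in 8 of 17 alternatives. KIF4A, a chromosome-bound motor, gave 0.45 (SE 0.112, adjusted p = 0.0218). CKS1B, a binding partner of cyclin-dependent kinases, gave 0.34 on probe ILMN_1719256 (SE 0.0789, adjusted p = 0.0133) and 0.03 on ILMN_2041046 (adjusted p = 0.91). The calls of SPC24, KIF4A and CKS1B were each lost when either clone 2 array was left out, at adjusted p between 0.0552 and 0.186.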

How the results depend on the processing

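Counts of the 67 probes called stayed within 1.5 times, and medians within 1 SD, with no background correction, an offset of 50, the authors' processed values, both other detection filters and 1 probe per gene. Folds of single dim probes moved more. Over all alternatives, CDC6 for clone 2 over H9 ran from -0.5771 to -0.175, and MCM7 on ILMN_1800654 for clone 5 over H9 from -0.6889 to -0.19. LIN54 for clone 5 over clone 3 ran from -0.8373 to -0.31. CDKN1A for clone 3 over H9 moved less, from 0.905 to 1.2303. With median scaling the counts were 2 for ZFX over control lines, 1 and 0 for clones 2 and 5 over H9, 4 and 2 for clones 2 and 5 over clone 3, 4 for clone 3 over H9, 0 for clone 5 over clone 2 and 5 in the F test, and the median log2 folds moved to -0.142 for ZFX over control lines, -0.207 for clone 2 over H9, -0.27 for clone 2 over clone 3 and 0.1276 for clone 5 over clone 2. Over all probes, median scaling called 538 for ZFX over control lines, 703 and 249 for clones 2 and 5 over H9, and 1554 and 1546 over clone 3. It called 1451 for clone 3 over H9 and 49 for clone 5 over clone 2. It also moved the share of higher among all calls from 62.9% to 50.9% for ZFX over control lines, from 53.6% to 41% for clone 2 over H9 and from 53.5% to 39.6% for clone 2 over clone 3, and the median log2 fold of all probes, for clone 5 over clone 2, from 0.0089 to 0.0824. Without the intensity trend the pairs gave 6 and 1 over H9, 6 and 7 over clone 3, 15 for clone 3 over H9 and 0 between the ZFX clones, and the F test 14. Over all probes, these pairs gave 1549 and 320, 2347 and 2433, 2685 and 39 calls in the same order. For ZFX over control lines, 2 probes were called with line ignored (651 over all probes) and 16 with line fixed (3287 over all). With H9 as the only control 6 were called (1224 over all), and with clone 3 as the only control 12 (3092 over all). On line means 0 were called (13 over all), and ZFX itself had a limma adjusted p of 0.0606 there. In F tests chosen after seeing the data, 21 passed with clone 3 left out and 22 with H9 left out. The F test counts of the alternatives, here and below, are given without those over all probes. No result about the 67 can thus be read from them. The cause of these shifts was not tested.

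Leaving out 1 array at a time gave 0 to 1 calls for ZFX over control lines (1 without the second H9 array), 8 to 21 for clone 2 over H9 (8 without the second H9 array, 10 and 11 without a clone 2 array), 3 to 9 for clone 5 over H9 (3 without the first clone 5 array), 8 to 18 for clone 2 over clone 3 (8 without the second clone 3 array, 9 and 11 without a clone 2 array), 9 to 20 for clone 5 over clone 3 (9 without the first clone 3 array), 17 to 28 for clone 3 over H9 (17 without the second clone 3 array), 1 to 4 for clone 5 over clone 2 (1 without the second clone 2 array, 4 without either H9 array) and 28 to 35 in the F test. In each pair of lines, the fit with the lowest of these counts also called fewer of all probes than the fit of 8 arrays. The fit with the 1 call for ZFX over control lines also called more of all probes. None of the alternatives run reversed a called difference of a named probe, and calls were lost in 50 of 81 named comparisons under median scaling and in 33 without the trend. The 81 include the 3 largest folds each way for ZFX over control lines, which had no call to lose.

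Arrays of different lines with the same number did not deviate together (correlations of -0.0091 to 0.0571). With the replicate number as a block the calls were 0 for ZFX over control lines, 19 and 10 over H9, 16 and 17 over clone 3, 27 for clone 3 over H9, 2 between the ZFX clones and 35 in the F test, and 253 in place of 380 over all probes for ZFX over control lines. Slide as a block was not run, since the headers give no slides. Signal over background limits E2F1 and PCNA ILMN_1685682 most, the probes not detected on every array.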
